A study of Mus musculus with 12 samples.

Results

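The injured cortex of Cre control mice was compared with the cortex of the opposite side 2 hr after controlled cortical impact (CCI), in which a piston strikes the exposed brain surface. The 6 libraries of this comparison, of 12 in the whole series, were those whose labels give the genotype CX3CR1cre-er/+ and the treatment CCI: 3 of ipsilateral (struck side) and 3 of contralateral cortical tissue. Here they are called wt, as in their titles, although they are not wild type. All carry 1 allele in which the Cx3cr1 locus, active in microglia and monocytes, drives a tamoxifen-dependent Cre recombinase. The other 6 libraries of the series, 3 a side, came from CX3CR1cre-er/+ STING fl/fl mice (called cKO) at the same time after CCI, and they entered the model that estimates the spread. The series description writes the Cre allele of the floxed animals as CX3CR1cre/+, and no source used here mentions tamoxifen. There were no sham-operated or uninjured animals, so surgery and impact cannot be told apart and changes common to both sides are not seen. Since no label ties a library to an animal of its own, the p values rest on the scatter among libraries and this scatter may be technical.

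Within minutes to hours of a blow, brain tissue is exposed to torn membranes, released glutamate and adenosine triphosphate, leaking vessels and spreading depolarization. Cells first transcribe genes whose factors and promoters stand ready, the immediate early and NF-kB dependent genes, and with them the inhibitors that switch the same pathways off. That inflammatory core was set aside here in 12 lists (immediate early transcription factors, cytokines and NF-kB targets, chemokines, leukocyte, platelet and red cell genes, interferon-inducible genes, innate receptors, cell death, endothelial activation and reactive astrocyte genes). What follows concerns mainly the genes on none of them, here called outside genes. Of the set-aside genes 8 also stand on a response or cell type list and are counted there, and 4 of these rose (Hspb1, Nfkbia, Nr4a1 and Ptgs2).

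Levels are CPM (a gene's count relative to the scaled total of its library), given for libraries 1, 2 and 3 of a side in that order, or as mean ± SD (n = 3). A log2 change is ipsilateral minus contralateral with its SE. The test was the quasi-likelihood test of edgeR with Benjamini-Hochberg adjustment over all genes, and a gene rose or fell where the adjusted p was under 0.05. Total counts were 27313520 to 28295376 in contralateral and 23875231 to 25308024 in ipsilateral libraries. Neuronal markers of the cortex summed to 13593 to 14508 CPM in contralateral and 13229 to 14615 CPM in ipsilateral libraries, and all 23 were detected well enough to test. Contralateral library 3 stood apart from the other two: per gene, the chi-square of its counts against theirs was 45.8 and 44.3, against 7.87 between libraries 1 and 2. Ipsilateral library 1 differed from the other ipsilateral libraries by 16.6 and 19 on the same scale, against 7.92 between libraries 2 and 3. Mitochondrially encoded genes took 4.39, 4.43 and 5.46% of counts in contralateral and 6.91, 8.17 and 7.96% in ipsilateral libraries. Red cell genes summed to 290.0 to 545 CPM in contralateral and 890.0 to 2398 CPM in ipsilateral libraries, with the lowest ipsilateral value in library 1 and the highest in library 2. What part these shares have in the results was not tested. Tmem173, the floxed gene that encodes STING and is read here from all cell types of the tissue, had 2.49, 2.63 and 3.18 CPM in contralateral and 2.34, 3.69 and 2.72 CPM in ipsilateral wt libraries, and 0.998, 1.96 and 0.762 CPM and 1.05, 2.44 and 1.24 CPM in the cKO ones. The cKO libraries numbered 2 were the highest of the cKO libraries on both sides, and the ipsilateral one lay within the wt range, so cKO results are also given without both. Ipsilateral cKO library 3 had 7958931 counts, where the other cKO libraries had 20779210 to 33567194, and lay at −45.1 on the second principal component with all other libraries between −4.24 and 11.8, so cKO results are given without it too.

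Of 16836 genes tested, 460 rose (2.73%) and 31 fell (0.184%). Of the rises 345 (75%) were outside genes, and of the falls 30 (96.8%), Fkbp5 being the exception. Outside rises were smaller than set-aside ones, with a median log2 change of 0.77 against 2.27. At least 2-fold were 118 outside rises, 93 set-aside rises and 2 falls, where 1.25% of all genes tested rose and 0.0119% fell by that much. Many outside changes were small: 108 of the 345 outside rises and 24 of the 30 outside falls were under 1.5-fold. At an unadjusted p under 0.05, 1511 of the 16836 genes were higher and 914 lower. Counts of list members below stand beside these numbers, and beside the 2.73% of all genes that rose and 0.184% that fell. Leaving out 1 library at a time, 146 of the 345 outside rises and 1 of the 31 falls, Tmem119, kept their call each time. The total of rises was 337 and of falls 46 without contralateral library 1, 248 and 2 without contralateral library 2, and 687 and 174 without contralateral library 3. Without ipsilateral library 1, 2 or 3 there were 455, 270 and 300 rises and 22, 11 and 10 falls. All 491 called genes kept their sign in each of these 6 fits. With trends on GC content and gene length removed, 578 genes rose and 139 fell, a larger share of falls than the 31 beside 460.

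**Figure D1:**
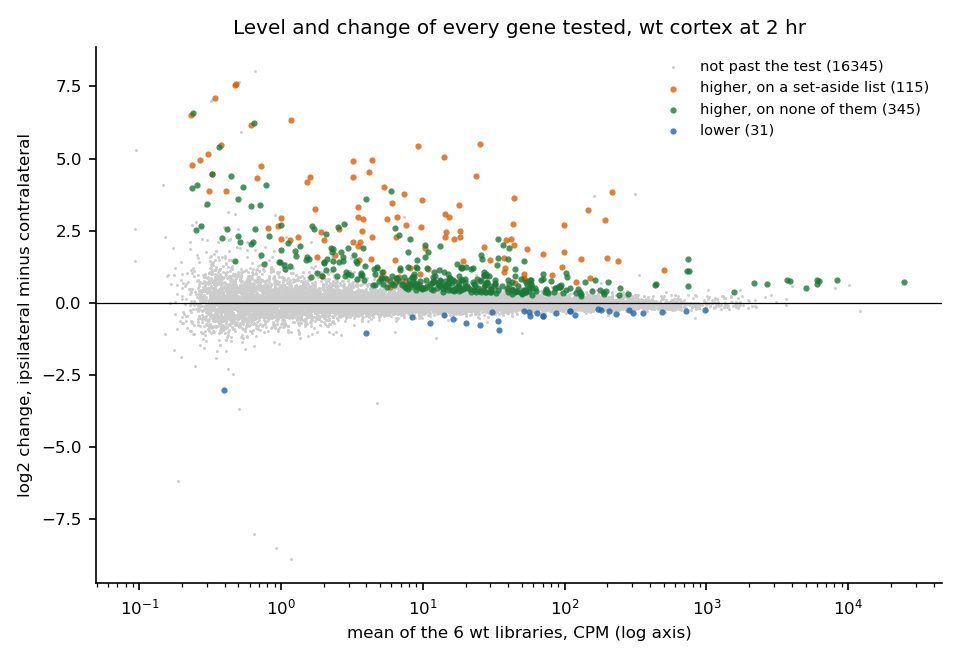
Mean level in CPM (horizontal, log axis) and log2 change between sides (vertical) of the 16836 genes tested in wt cortex; coloured points passed the test. The 345 outside rises (green) lie lower than the 115 set-aside rises (orange), and the 31 falls (blue) lie close to 0 at middle and high levels.

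Outside rises taken by the naming rule are given first, though not in order of their log2 change. Gpr84, a receptor for medium-chain fatty acids on myeloid cells (chromosome 15 at 103308235 to 103310612, minus strand, of GRCm38), had 0.552, 0.587 and 1.12 CPM in contralateral libraries 1 to 3 and 10.7, 14.2 and 8.64 CPM in ipsilateral libraries 1 to 3 (log2 3.89 ± 0.30, adjusted p = 1.24e-06). Slc15a3, a peptide and histidine transporter of lysosomes (chromosome 19 at 10839727 to 10859362, plus strand), had 2.07, 1.62 and 1.72 CPM in contralateral libraries 1 to 3 and 10.7, 11.5 and 10.5 CPM in ipsilateral libraries 1 to 3 (log2 2.59 ± 0.15, adjusted p = 8.04e-08). Plek, which encodes pleckstrin, the main protein kinase C substrate of platelets and also made by leukocytes (chromosome 11 at 16971206 to 17052381, minus strand), had 9.18, 12.03 and 14.9 CPM in contralateral libraries 1 to 3 and 56.8, 56.5 and 54.5 CPM in ipsilateral libraries 1 to 3 (log2 2.22 ± 0.13, adjusted p = 8.57e-08). The rule that named these genes asks for sides that do not overlap, which was so for 10.5% of all genes in this direction. Each overlaps a gene on the other strand (Gm49482, Tmem132a and Cnrip1), so reads of those genes may be included, as no source used here says whether counting kept strands apart. The same holds for other genes named below, among them Rab20, Rrad, Dll4, Ppp1r15a, Mafk, Plk3, Vcl, Ccnd3, Ttc3, Tubb4b, Nipal3, Smg6, Tceanc2 and Stab1.

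Others named by that rule had lower levels. Stx11, a syntaxin of immune cell granules, went from 0.257 ± 0.167 to 1.73 ± 0.797 CPM (log2 2.72 ± 0.50) and Rab20, a small GTPase of phagosomes, from 0.487 ± 0.155 to 2.92 ± 1.04 CPM (log2 2.57 ± 0.32). Neurl3, a ubiquitin ligase, gained 2.63 ± 0.24 and Cass4, an adhesion scaffold of the Cas family, 2.65 ± 0.34 on the log2 scale. The paired immunoglobulin-like receptors Lilr4b (log2 4.07 ± 0.61, adjusted p = 0.00115) and Lilrb4a (log2 2.31 ± 0.48, adjusted p = 0.0145) are similar in sequence and lie in a shared longer gene model, Gm49339, so how the counting divided their reads is uncertain. Cytip, a leukocyte adaptor of integrin signalling, had 3, 2 and 0 counts in contralateral libraries 1 to 3 and 12, 39 and 22 in ipsilateral libraries 1 to 3, and the long noncoding RNA gene Gm7967 gained 2.55 ± 0.52. Cytip was not called without contralateral library 2 or ipsilateral library 2 or 3, with a highest adjusted p of 0.114. Gm7967 was not called without contralateral library 2 or ipsilateral library 2, with a highest adjusted p of 0.0878. Lilrb4a was not called without contralateral library 1 or ipsilateral library 2, with a highest adjusted p of 0.0927.

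Ighd, the constant region of immunoglobulin D on B cells, went from 0.239 ± 0.121 to 1.04 ± 0.632 CPM (log2 2.10 ± 0.51). Its count was 10 in ipsilateral library 1, against 39 and 25 in ipsilateral libraries 2 and 3, and library 1 was also the lowest of that side for red cell genes. Neutrophil markers, of which 11 of 15 tested rose (6 without contralateral library 1 or 2, 5 without ipsilateral library 2 and 7 without ipsilateral library 3), summed to 9.88 to 11.9 CPM in contralateral and 23.3 to 50.2 CPM in ipsilateral libraries. Of all 25 listed, Camp, Elane, Il1f9, Ly6g, Mmp8 and Stfa2l1 had no count in any contralateral library, and Ly6g had 1 count in the ipsilateral ones. Some of the 15 tested were nearly absent from the contralateral side, such as Trem1, with 1 count there and 86 in the ipsilateral libraries. Contralateral wt libraries could not have brought such genes, or Ppbp below, past the filter on low counts. The share that rose thus follows in part from which genes could be tested. Of 12 platelet markers tested 3 rose. That list holds Nrgn, which is abundant in neurons and alone had 1338 to 1886 CPM in contralateral and 1709 to 1799 CPM in ipsilateral libraries. The other 11 summed to 13.3 to 16.2 CPM in contralateral and 19.3 to 27.2 CPM in ipsilateral libraries. Ppbp, a chemokine of platelet granules, had 2 counts in all contralateral and 167 in all ipsilateral libraries, and Itga2b, a chain of the platelet fibrinogen receptor, 99 and 264. More cells of a type and more RNA per cell cannot be told apart in bulk tissue, and the part of blood cells in these rises was not tested. Ighd was not called without contralateral library 1 or 2 or ipsilateral library 2 or 3 (highest adjusted p = 0.244).

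Genes of the BCL2 family set the threshold for mitochondrial apoptosis; A1 and Mcl1 are short-lived members that protect cells, and BH3-only members such as Bmf promote death. The mouse has several A1 genes. Bcl2a1b had 0.621, 0.553 and 0.636 CPM in contralateral libraries 1 to 3 and 8.15, 7.81 and 6.13 CPM in ipsilateral libraries 1 to 3 (log2 3.599 ± 0.39, adjusted p = 3.84e-05), Bcl2a1d 0.0345, 0.242 and 0.0748 against 1.15, 1.80 and 0.946 CPM (log2 3.40 ± 0.56, adjusted p = 0.00255), and Bcl2a1a 0.173, 0.104 and 0.0374 against 1.43, 1.37 and 0.576 CPM (log2 3.35 ± 0.60, adjusted p = 0.00490). All 3 were at 1 CPM or less on the contralateral side. The rule that named them asks for sides that do not overlap, as in 10.5% of all genes in this direction. Bcl2a1b also shares its strand and place with Gm29094. Their transcripts are so alike that the division of reads among them is uncertain. Mcl1 had 53.9, 56.2 and 66.8 against 101, 98.3 and 102 CPM (log2 0.77 ± 0.08, adjusted p = 2.41e-05), which is a small change in a much more abundant transcript. Of the 17 tested members of the BCL2 list, which lacks Bcl2a1a, 3 rose (Bcl2a1b, Bcl2a1d and Mcl1) and Bmf fell, with a median of 0.05 against −0.01 over all genes. Bmf had 6.04, 5.91 and 4.19 against 2.42, 3.30 and 2.10 CPM (log2 −1.05 ± 0.22, adjusted p = 0.0170) and was not called without contralateral library 1 or 2 or ipsilateral library 1 or 3 (highest adjusted p = 0.102). The other 13 members did not pass.

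The 3 A1 genes lie apart on chromosome 9 and have closely related promoters, printed here because these copies rose together. The windows run from 250 bases before to 50 after the RefSeq start (GRCm38.p6), 5′ to 3′ on the gene's strand. Capitals mark the AP-1 letters TGANTCA and the PU.1 letters GNGGAAGT, searched on both strands; AP-1 is the Fos and Jun dimer and PU.1 a factor of myeloid cells.
Bcl2a1a, chr9:88956670-88956969, plus strand: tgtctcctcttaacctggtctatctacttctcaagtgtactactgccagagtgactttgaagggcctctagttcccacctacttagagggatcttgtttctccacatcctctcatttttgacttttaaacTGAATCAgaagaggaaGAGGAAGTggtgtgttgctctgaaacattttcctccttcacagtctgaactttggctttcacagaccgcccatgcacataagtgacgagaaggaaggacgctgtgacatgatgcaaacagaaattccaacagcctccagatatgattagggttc
Bcl2a1b, chr9:89199023-89199322, plus strand: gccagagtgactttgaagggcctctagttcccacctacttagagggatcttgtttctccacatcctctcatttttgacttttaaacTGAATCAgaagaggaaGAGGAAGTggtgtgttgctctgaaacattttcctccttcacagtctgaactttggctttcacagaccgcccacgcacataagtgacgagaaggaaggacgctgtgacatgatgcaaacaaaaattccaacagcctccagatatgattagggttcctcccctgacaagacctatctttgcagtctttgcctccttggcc
Bcl2a1d, chr9:88731801-88732100, minus strand: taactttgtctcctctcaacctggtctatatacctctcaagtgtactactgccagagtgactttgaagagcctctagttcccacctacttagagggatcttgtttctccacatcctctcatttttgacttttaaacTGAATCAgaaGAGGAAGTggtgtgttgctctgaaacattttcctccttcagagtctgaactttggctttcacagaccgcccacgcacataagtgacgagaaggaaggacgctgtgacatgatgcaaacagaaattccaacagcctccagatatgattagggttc
At the best shift of up to 60 bases, the windows of Bcl2a1a and Bcl2a1b were 99.2% identical, those of Bcl2a1a and Bcl2a1d 66.3% and those of Bcl2a1b and Bcl2a1d 73.0%, without gaps, so that a missing stretch of letters lowers the value. Each holds the 2 motifs in the same order. A match of letters is a description of the window and not a binding site.

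Several outside rises are known from the vessel wall. Apold1, an endothelial early response gene (chromosome 6 at 134981718 to 134986836, plus strand), had 13.98, 16.8 and 12.8 CPM in contralateral libraries 1 to 3 and 55.4, 60.6 and 59.5 CPM in ipsilateral libraries 1 to 3 (log2 2.01 ± 0.12, adjusted p = 7.60e-08). Epha2, a receptor tyrosine kinase for ephrins of neighbouring cells (chromosome 4 at 141301240 to 141329384, plus strand), had 2.66, 3.14 and 2.77 CPM in contralateral libraries 1 to 3 and 12.5, 15.8 and 11.6 CPM in ipsilateral libraries 1 to 3 (log2 2.21 ± 0.19, adjusted p = 4.37e-06). Sox7, a transcription factor of endothelial development, had 1.35, 0.864 and 1.53 against 4.18, 5.11 and 4.81 CPM (log2 1.91 ± 0.21, adjusted p = 4.39e-05). In each the sides did not overlap, as in 10.5% of all genes in this direction, and for Epha2 the naming rule asks for it. Apold1 and Sox7, like Kif5a and Depp1 below, were picked after their values were seen. Of 19 general endothelial markers only Flt1, a receptor for vascular endothelial growth factor, rose (log2 0.39 ± 0.10, adjusted p = 0.0413), with 16 above 0, and the list summed to 432 to 491 against 485 to 593 CPM. That 1 rise is 5.26% of the list, where 2.73% of all genes rose, and 8213 of all 16836 genes were above 0. Flt1 was not called without contralateral library 1 or 2 or ipsilateral library 2 or 3 (highest adjusted p = 0.212). None of the 15 mural cell markers passed with edgeR, DESeq2 or limma-voom, and 1 had an unadjusted p under 0.05.

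The promoter windows of Apold1 and Epha2, chosen after the motif search, are shown as examples of windows that hold a searched motif. Capitals mark TATAAA (the TATA box, where polymerase is positioned) and TGACGTCA (the cAMP response element).
Apold1, chr6:134981751-134982050, plus strand: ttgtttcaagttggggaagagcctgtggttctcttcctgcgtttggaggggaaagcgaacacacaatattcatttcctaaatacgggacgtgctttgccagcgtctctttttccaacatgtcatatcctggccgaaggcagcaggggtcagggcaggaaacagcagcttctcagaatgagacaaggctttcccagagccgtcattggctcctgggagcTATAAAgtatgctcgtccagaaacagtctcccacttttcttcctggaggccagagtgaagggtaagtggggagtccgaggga
Epha2, chr4:141300971-141301270, plus strand: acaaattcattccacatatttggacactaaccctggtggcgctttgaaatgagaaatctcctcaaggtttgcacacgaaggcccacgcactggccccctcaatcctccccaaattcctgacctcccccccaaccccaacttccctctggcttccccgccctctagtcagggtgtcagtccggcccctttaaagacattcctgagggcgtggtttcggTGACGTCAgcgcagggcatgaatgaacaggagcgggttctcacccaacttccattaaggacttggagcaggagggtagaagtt
Counted from the RefSeq start, the TATA letters of Apold1 begin at −32 and those of the cAMP response element of Epha2 at −33. For Apold1 the RefSeq start lies 283 bases downstream of the gene start given above, which is that of GENCODE. By the GENCODE start these TATA letters lie inside the gene. Among 11015 tested genes with a matched window, TATAAA was in 7.08%, and it was in 14.6% of the 226 outside rises with a window, in 28.8% of the 139 rises of at least 2-fold and in 4 of 23 falls. TGANTCA was in 4.74% of all windows and 7.52% of outside rises, GNGGAAGT in 8.75 and 11.1%, and TGACGTCA in 3.22 and 5.75%. The NF-kB motif was in 10.5% of all windows, 13.3% of outside rises and none of the 23 windows of falls. On the immediate early list, 5 of the 19 rises with a window held TATAAA and 1 held TGACGTCA. These shares are descriptions without a test.

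In the Notch pathway, in which binding of a ligand on a neighbouring cell lets proteases cut the receptor and free a transcriptional activator, 4 of 16 genes tested rose and none fell (median 0.31). The endothelial ligand Dll4 had 1.59, 1.83 and 2.02 against 4.71, 5.49 and 4.53 CPM (log2 1.44 ± 0.26, adjusted p = 0.00524), and the receptor Notch1 18.7, 21.7 and 24.7 against 30.5, 35.2 and 34.3 CPM (log2 0.62 ± 0.12, adjusted p = 0.00666). The target repressors Hes5 (0.84 ± 0.18) and Hes1 (0.56 ± 0.14) also rose. In CPM, each ipsilateral library exceeded each contralateral one for all of them, as in 10.5% of all genes. Hes5 was not called without contralateral library 1 or ipsilateral library 2, with a highest adjusted p of 0.0938. Hes1 was not called without contralateral library 2 or 3 or ipsilateral library 1 or 2, with a highest adjusted p of 0.166. The number of rises on the list was 2 without ipsilateral library 2.

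Among growth factors, 2 of 25 rose: Hbegf, a ligand of the epidermal growth factor receptor, with 12.5, 10.7 and 9.80 against 27.9, 26.6 and 24.8 CPM (log2 1.26 ± 0.12, adjusted p = 6.95e-06), and Vegfa, which makes vessels grow and leak, with 34.1, 30.6 and 41.4 against 59.4, 63.5 and 64.1 CPM (log2 0.82 ± 0.10, adjusted p = 0.000120). Of 34 TGF-beta and BMP pathway genes 3 rose and none fell. Tgif1, a homeobox repressor that holds back TGF-beta targets (chromosome 17 at 70844205 to 70853546, minus strand), had 0.621, 0.864 and 0.674 CPM in contralateral libraries 1 to 3 and 4.34, 5.79 and 4.403 CPM in ipsilateral libraries 1 to 3 (log2 2.74 ± 0.23, adjusted p = 2.27e-06), the largest change on that list. Tgfb1 itself had 4.90, 4.32 and 3.85 against 7.46, 11.97 and 9.13 CPM (log2 1.12 ± 0.18, adjusted p = 0.00215), and the inhibitor Smad7 gained 0.50 ± 0.10. Smad7 was not called without contralateral library 1 or ipsilateral library 2 or 3, with a highest adjusted p of 0.0698. Without contralateral library 3 the list had 5 calls. In the Wnt pathway 1 of 22 rose (4.55%), where 2.73% of all genes did, so this is 1 gene and not a result about the pathway. It was Wnt7a, a ligand that maintains the blood-brain barrier, with 6.52, 6.67 and 7.18 against 9.92, 11.4 and 11.4 CPM (log2 0.68 ± 0.11, adjusted p = 0.00143).

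Of 21 MAP kinase feedback inhibitors, which act on signalling upstream of early genes, 8 rose, 13 did not pass and none fell (median 0.33), and 7 or 8 did so without any 1 library. Dusp10, a phosphatase of the stress kinases p38 and JNK, had 5.94, 6.22 and 7.33 against 14.3, 16.1 and 14.4 CPM (log2 1.201 ± 0.13, adjusted p = 3.37e-05), and Dusp6, a phosphatase of ERK, 59.8, 61.4 and 78.7 against 151, 124 and 135 CPM (log2 1.04 ± 0.16, adjusted p = 0.00149). The nuclear phosphatases Dusp2 (1.605 ± 0.21) and Dusp5 (0.94 ± 0.17) and the receptor signalling inhibitor Spry4 (0.91 ± 0.14) rose as well. Errfi1, an inhibitor of the epidermal growth factor receptor, gained 0.66 ± 0.15. Errfi1 was not called without contralateral library 1 or 2 or ipsilateral library 1, 2 or 3, with a highest adjusted p of 0.111.

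Of 23 regulators of G protein signalling and small GTPase inhibitors 8 rose and none fell (median 0.35), with 6 to 9 calls when a library was left out. The largest were Gem and Rrad, GTPases of the RGK family that inhibit voltage-gated calcium channels. Gem (chromosome 4 at 11704457 to 11714752, plus strand) had 1.86, 1.73 and 3.07 CPM in contralateral libraries 1 to 3 and 10.2, 12.3 and 11.6 CPM in ipsilateral libraries 1 to 3 (log2 2.36 ± 0.21, adjusted p = 4.45e-06). Rrad had 0.552, 0.622 and 0.823 against 4.22, 3.22 and 3.04 CPM (log2 2.39 ± 0.25, adjusted p = 2.88e-05). The rule that named both genes asks for sides that do not overlap, as in 10.5% of all genes in this direction. Rgs2, which shortens Gq signalling, had 38.4, 41.2 and 41.9 against 69.5, 64.0 and 67.0 CPM (log2 0.72 ± 0.08, adjusted p = 4.52e-05), and the Ras-like Rasl11b 83.6, 70.7 and 69.4 against 127, 103 and 112 CPM (log2 0.61 ± 0.09, adjusted p = 0.000862).

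**Figure D2:**
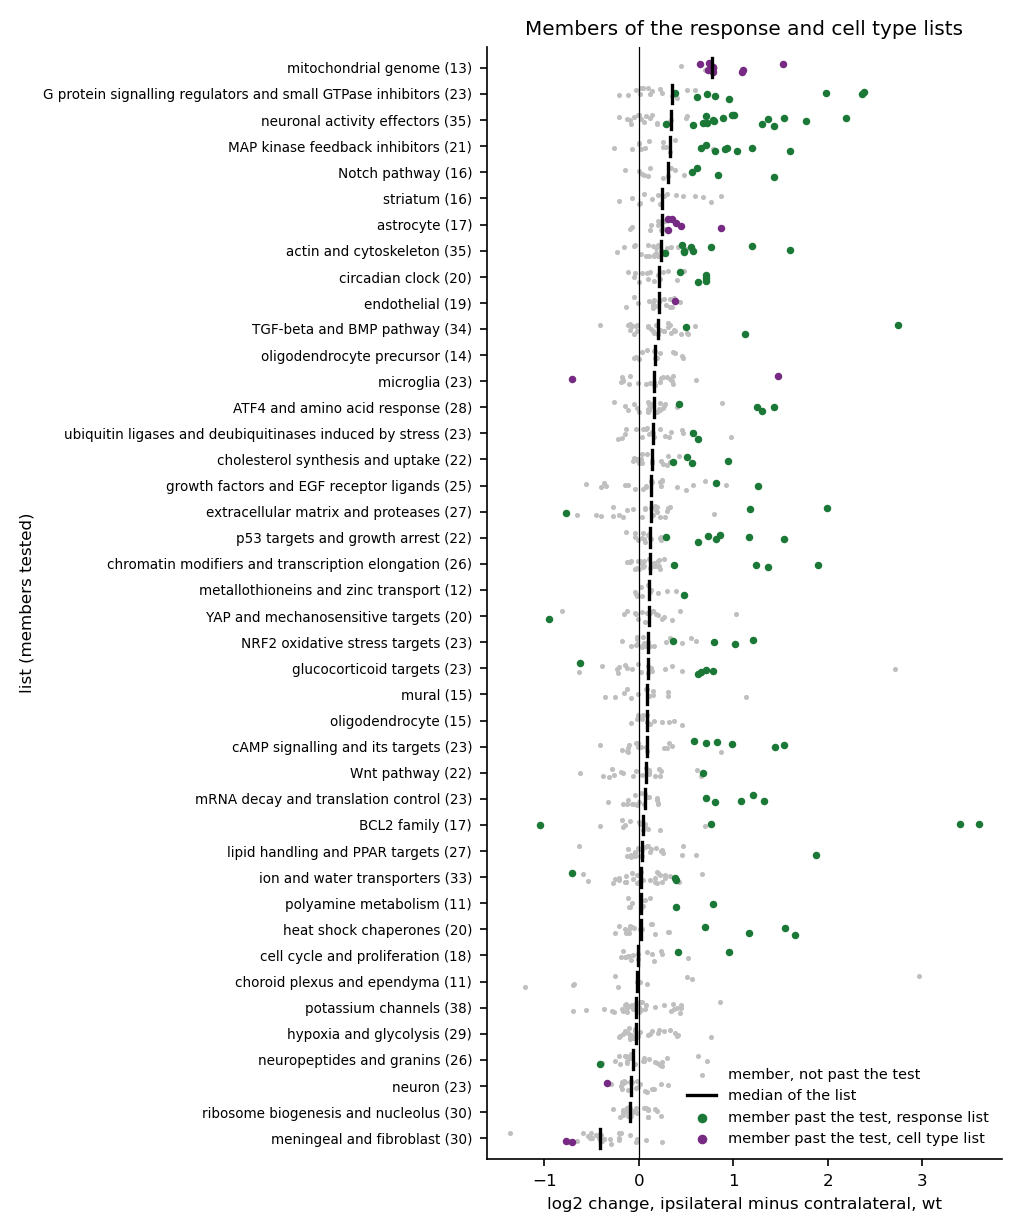
Log2 change between sides (horizontal) of each tested member of 42 lists, ordered by the list's median (black bar); coloured points passed the test (green, response lists; purple, cell type lists) and grey points did not. The mitochondrial genome has the highest median (0.78), followed by regulators of G protein signalling (0.35) and neuronal activity effectors (0.34), and meningeal and fibroblast markers the lowest at −0.41.

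Of 35 effectors that neurons induce on activity, other than the early transcription factors, 16 rose and none fell (median 0.34), with 12 to 16 calls when a library was left out. The leading 4 by p were Ppp1r15a (1.44 ± 0.10), Gadd45b (1.54 ± 0.11), Ptgs2 (2.20 ± 0.18) and the kinase Pim1 (1.77 ± 0.16), the first 3 being general stress genes too. Nptx2, a secreted pentraxin that clusters AMPA receptors and is made by neurons, had 64.7, 71.8 and 82.8 against 144, 138 and 125 CPM (log2 0.89 ± 0.13, adjusted p = 0.000626). Rcan1, an inhibitor of the calcium-dependent phosphatase calcineurin, had 75.3, 74.8 and 75.8 against 109, 107 and 110.5 CPM (log2 0.53 ± 0.06, adjusted p = 7.94e-05); both were picked after their values were seen. Of 23 cAMP genes 6 rose, among them the kinase Sik1, which restrains CREB coactivators (0.98 ± 0.12), the kinase anchor Akap12 (0.83 ± 0.14) and the receptor Adrb1 (0.72 ± 0.12). Of 20 clock genes 5 rose, with Nfil3 at 0.72 ± 0.09 and Ciart at 0.63 ± 0.11, and 3 without contralateral library 2. None of 38 potassium channel genes passed with edgeR (range −0.70 to 0.87), though 5 rose without contralateral library 3. At an unadjusted p under 0.05, 7 were higher and 4 lower, beside 1511 and 914 of all 16836 genes. DESeq2 called 2 and limma-voom 1.

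Of 26 genes of chromatin and transcription elongation 4 rose and none fell. Kdm6b, which removes methyl groups from a lysine of histone H3 (chromosome 11 at 69398508 to 69413675, minus strand), had 15.5, 16.4 and 19.4 CPM in contralateral libraries 1 to 3 and 66.3, 69.8 and 55.4 CPM in ipsilateral libraries 1 to 3 (log2 1.90 ± 0.10, adjusted p = 4.62e-08). It overlaps Kdm6bos on the other strand. Arid5a, an RNA-binding protein known to stabilise Il6 mRNA, had 9.29, 12.3 and 14.1 against 25.4, 28.5 and 30.5 CPM (log2 1.24 ± 0.14, adjusted p = 5.60e-05), and Baz1a, a chromatin remodelling subunit, gained 1.37 ± 0.24. The elongation factor Ell2 gained 0.38 ± 0.09. Ell2 was not called without contralateral library 1 or 2 or ipsilateral library 1, 2 or 3, with a highest adjusted p of 0.195. Without contralateral library 3 the list had 8 calls.

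Of 23 genes of mRNA decay and translation control 5 rose and none fell. Zfp36l1 and Zfp36l2 bind AU-rich elements and send mRNAs to decay; they had 8.18, 8.05 and 13.7 against 19.7, 26.9 and 28.5 CPM (log2 1.33 ± 0.19, adjusted p = 0.000766) and 9.53, 10.8 and 13.4 against 23.4, 26.2 and 28.02 CPM (log2 1.21 ± 0.15, adjusted p = 0.000119). Tob1 and Tob2, which link such proteins to the deadenylases, gained 1.08 ± 0.10 and 0.71 ± 0.13. Of 22 p53 targets and growth arrest genes 7 rose, including Btg1 (0.81 ± 0.10), a relative of Tob1, the cell cycle inhibitor Cdkn1a (37.2, 46.8 and 42.9 against 65.0, 69.1 and 62.3 CPM; log2 0.63 ± 0.08, adjusted p = 0.000252) and the kinase Plk3 (0.86 ± 0.12). Among 18 cell cycle genes 2 rose, the cyclin of splicing Ccnl1 (log2 0.96 ± 0.08, adjusted p = 2.11e-06) and the G1 cyclin Ccnd3 (0.42 ± 0.10). Ccnd3 was not called without contralateral library 1 or 2 or ipsilateral library 2 or 3, with a highest adjusted p of 0.145. None of 30 genes of ribosome biogenesis passed with edgeR (1 higher and 1 lower at an unadjusted p under 0.05, and DESeq2 called 1 lower), and 21 of them were below 0, with a median of −0.09.

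Among 22 cholesterol genes 4 rose, among them Insig1, which keeps the sterol sensor in the endoplasmic reticulum (69.3, 72.6 and 81.1 against 118, 102 and 109 CPM; log2 0.56 ± 0.08, adjusted p = 0.000592), and the synthesis enzymes Idi1 (0.51 ± 0.12) and Lss (0.37 ± 0.09). Idi1 was not called without contralateral library 1 or 2 or ipsilateral library 1 or 3, with a highest adjusted p of 0.205. Lss was not called without contralateral library 1 or 2 or ipsilateral library 1, 2 or 3, with a highest adjusted p of 0.223. The number of rises on the list was 2 without contralateral library 1 or 2 or ipsilateral library 1 or 3 and 7 without contralateral library 3. Of 11 polyamine genes 2 rose, Sat1, the enzyme that marks polyamines for breakdown (29.6, 31.1 and 27.2 against 45.8, 52.3 and 54.1 CPM; log2 0.79 ± 0.08, adjusted p = 3.57e-05), and Odc1, the first enzyme of their synthesis (62.8, 63.3 and 61.8 against 82.5, 79.1 and 84.9 CPM; log2 0.39 ± 0.06, adjusted p = 0.00219). An enzyme of synthesis and an enzyme of breakdown were thus both higher on the injured side. Ch25h, which makes the oxysterol that blocks cholesterol synthesis, gained 1.88 ± 0.40. Ch25h was not called without contralateral library 1 or 2 or ipsilateral library 2 or 3, with a highest adjusted p of 0.0896.

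None of 29 hypoxia and glycolysis genes passed with edgeR or limma-voom (4 higher and 5 lower at an unadjusted p under 0.05, and DESeq2 called 1 higher), and 1 rose and 1 fell without contralateral library 3. Vegfa (0.82 ± 0.10) and Hmox1, also known to respond to hypoxia, rose but are counted on other lists, so the count holds for the listed genes only. The 3 most abundant, Pkm, Eno1 and Pgam1, were at −0.14 ± 0.07, −0.09 ± 0.07 and −0.11 ± 0.05. The ATF4 and NRF2 lists had more calls than the hypoxia list. Of 28 ATF4 and amino acid genes 4 rose, with Trib1 at 1.30 ± 0.13 and Atf4, the factor itself, at 0.42 ± 0.09. Of 23 NRF2 targets 4 rose, led by the small Maf partner Mafk (13.8, 13.1 and 13.96 against 31.0, 34.5 and 28.6 CPM; log2 1.21 ± 0.12, adjusted p = 1.70e-05) and the poly-ADP-ribose enzyme gene Tiparp (1.02 ± 0.18), with Fth1 (0.36 ± 0.08) and Hmox1 (0.80 ± 0.19). Atf4 was not called without ipsilateral library 3, with a highest adjusted p of 0.0513. Fth1 and Hmox1 were not called without contralateral library 1 or 2 or ipsilateral library 2 or 3, with a highest adjusted p of 0.144 and 0.183. The number of rises on the NRF2 list was 2 without contralateral library 1 or 2 or ipsilateral library 2 or 3 and 7 without contralateral library 3, where 1 gene also fell. Depp1, a gene that FOXO factors induce, had 5.52, 5.49 and 4.86 against 16.5, 25.9 and 20.5 CPM (log2 1.98 ± 0.31, adjusted p = 0.00167).

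The other lists stand beside the 2.73% of all genes that rose and 0.184% that fell. Among them 20% of heat shock chaperones and 17.4% of glucocorticoid targets rose, where 14.3% of ATF4 and 17.4% of NRF2 genes did. Of 20 heat shock chaperones 4 rose (Hspa1a, Hspa1b, Hspb1 and Bag3, a partner of Hsp70 with log2 0.71 ± 0.12), with the near-identical Hspa1a and Hspa1b not separable, and 9 were below 0. Of 23 glucocorticoid targets 4 rose and 1 fell, and of 12 metallothionein and zinc genes 1 rose, Mt1 (0.48 ± 0.09). Of 33 ion and water transporters 2 rose, among them the GABA transporter Slc6a11 (0.39 ± 0.09), and 1 fell, while 1 of 26 neuropeptide and granin genes fell and none rose (0 falls without contralateral library 2 or ipsilateral library 3). Of 27 matrix and protease genes 2 rose, among them the fibrinogen-like Fgl2 (1.18 ± 0.28), and 1 fell. Of 23 ubiquitin genes 2 rose, Otud1 (0.63 ± 0.14) and Klhl21 (0.58 ± 0.14). Mt1 was not called without ipsilateral library 2, with a highest adjusted p of 0.0662. Slc6a11, Fgl2 and Hspb1 were not called without contralateral library 1 or 2 or ipsilateral library 2 or 3, with a highest adjusted p of 0.137, 0.141 and 0.230. Otud1 was not called without contralateral library 2 or ipsilateral library 1 or 3, with a highest adjusted p of 0.141. Klhl21 was not called without contralateral library 1, 2 or 3 or ipsilateral library 1 or 2, with a highest adjusted p of 0.131. The rises among ion and water transporters numbered 1 without contralateral library 1, 0 without contralateral library 2 or ipsilateral library 2 or 3 and 5 without contralateral library 3. Those among matrix and protease genes numbered 1 without contralateral library 1 or 2 or ipsilateral library 2 or 3 and 4 without contralateral library 3. The glucocorticoid list had 2 rises without ipsilateral library 2.

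Of 35 actin and cytoskeleton genes 9 rose and none fell (median 0.23), and the number of rises was 5 without contralateral library 1 or ipsilateral library 3 and 3 without contralateral library 2 or ipsilateral library 2. Vcl, which ties actin to adhesions, gained 0.57 ± 0.11 and the tropomyosin Tpm4 0.48 ± 0.10. Vcl was not called without contralateral library 2, with a highest adjusted p of 0.0588. Tpm4 was not called without contralateral library 1 or 2 or ipsilateral library 2 or 3, with a highest adjusted p of 0.108. The integrin subunit Itga5, a chain of the fibronectin receptor, had 4.42, 4.32 and 3.67 against 17.1, 19.4 and 13.1 CPM (log2 2.00 ± 0.26, adjusted p = 0.000265). Of 20 YAP and mechanosensitive targets none rose and Ccn2 fell. Ccn1, a relative of Ccn2, stands on the set-aside immediate early list instead, and it rose. On that list 5 were higher at an unadjusted p under 0.05, DESeq2 called 2 higher and limma-voom none, and 1 rose without contralateral library 3.

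Tubulins went in both directions. Tuba1c had 5.39, 5.01 and 5.05 CPM in contralateral libraries 1 to 3 and 14.6, 15.8 and 16.7 CPM in ipsilateral libraries 1 to 3 (log2 1.61 ± 0.14, adjusted p = 3.18e-06) and Tubb6 5.73, 5.67 and 5.28 against 11.8, 15.5 and 10.9 CPM (log2 1.195 ± 0.19, adjusted p = 0.00221), both isotypes of dividing or injured cells and scarce in cortex. Tubb1, the platelet isotype, had 0, 1 and 0 counts in contralateral libraries 1 to 3 and 10, 27 and 14 in ipsilateral libraries 1 to 3 (adjusted p = 0.00247). Contralateral wt libraries could not have brought Tubb1 past the filter on low counts, so its rise carries little weight in the count for the family. The 3 isotypes that fell are at higher levels: Tubb3, known mainly from neurons, had 419, 421 and 348 against 302, 339 and 299 CPM (log2 −0.34 ± 0.08, adjusted p = 0.0390), Tubb4b 354, 356 and 311 against 261, 284 and 263 CPM (log2 −0.34 ± 0.07, adjusted p = 0.0186) and Tubb5 578, 556 and 469 against 434, 458 and 404 CPM (log2 −0.31 ± 0.08, adjusted p = 0.0424). Every ipsilateral library of these 3 lay below every contralateral one, in Tubb3 and Tubb5 by a narrow margin, an order found in 8.7% of all genes. The most abundant tubulins in TPM (transcripts corrected for length and scaled to the library) did not pass: Tuba1a, Tuba1b, Tuba4a and Tubb4a were at −0.10, −0.23, −0.23 and −0.18 on the log2 scale of the counts (adjusted p = 0.458, 0.0939, 0.0517 and 0.297). Tubb2b, also not past the test, was at 0.22. Of 17 tubulin genes tested, a family taken whole after its values were seen, 3 rose, 3 fell and 12 were below 0. Summed over the family the levels in TPM were 5249, 5578 and 4985 in contralateral and 4328, 3907 and 3720 in ipsilateral libraries. On that scale the median of all genes changed by −0.18 on the log2 scale, and the short RNA Bc1 alone took 83028 to 167036 TPM of each wt library. Tubb3 and Tubb4b were not called without contralateral library 1 or 2 or ipsilateral library 1 or 3, with a highest adjusted p of 0.205 and 0.113. Tubb5 was not called without contralateral library 1 or 2 or ipsilateral library 1, 2 or 3, with a highest adjusted p of 0.203. Isotypes are similar in their coding sequence, so some division of reads among them is uncertain. The same 3 isotypes fell in cKO cortex, with log2 changes of −0.42, −0.32 and −0.33 (adjusted p = 0.00984, 0.0244 and 0.0279). In all 5 tubulins fell and 4 rose in cKO. Tuba4a and Tuba1b fell there too, by −0.35 and −0.31 (adjusted p = 0.00311 and 0.0192), and Tubb2b rose by 0.41 (adjusted p = 0.00945). With GC and length trends removed, Tuba4a and Tuba1b also fell in wt (adjusted p = 0.0224 and 0.0107). Tuba1a and Tubb4a passed in neither case. Tubb3 also passed without the cKO libraries numbered 2 (adjusted p = 0.0332) and without ipsilateral cKO library 3 (0.0352). Tubb4b and Tubb5 passed in neither case, with adjusted p of 0.136 and 0.178 in the former and 0.0547 and 0.0594 in the latter.

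Kif5a, the neuronal heavy chain of the kinesin that carries cargo along microtubules (chromosome 10 at 127225696 to 127263348, minus strand), rose, with 3875, 4339 and 4239.5 CPM in contralateral libraries 1 to 3 and 4938, 6386 and 6674 CPM in ipsilateral libraries 1 to 3 (log2 0.53 ± 0.10, adjusted p = 0.00624). It kept its call without each library. Of 32 kinesin genes tested 3 rose, the other two being Kif5b (0.51 ± 0.11), the form in all cells, and the mitotic Kif18a (1.41 ± 0.33), and none fell with edgeR. Kif5b was not called without contralateral library 1 or 2 or ipsilateral library 2 or 3, with a highest adjusted p of 0.145. Kif18a was not called without contralateral library 2 or 3 or ipsilateral library 2 or 3, with a highest adjusted p of 0.174. The third heavy chain, Kif5c, was at 0.23 ± 0.08 (adjusted p = 0.140).

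The 31 falls were mostly small changes in genes of middling to high level: 29 are protein-coding, and the median change was −0.37. Syngr1, a synaptic vesicle protein (chromosome 15 at 80091334 to 80119501, plus strand), had 786, 841 and 755 CPM in contralateral libraries 1 to 3 and 644, 643 and 652 CPM in ipsilateral libraries 1 to 3 (log2 −0.30 ± 0.06, adjusted p = 0.00792). Igfbp4, a binding protein that holds insulin-like growth factors, had 132, 146 and 128 against 103, 104 and 101 CPM (log2 −0.41 ± 0.08, adjusted p = 0.0101). In both genes the sides did not overlap, as in 8.7% of all genes in this direction, and their ipsilateral libraries lay close together. Slc6a7, the brain proline transporter, changed by −0.46 ± 0.10, Gfra2, the neurturin receptor, by −0.28 ± 0.06, Nmnat2, an axonal NAD enzyme, by −0.23 ± 0.06, and the adhesion receptor Adgra1 by −0.46 ± 0.09. Syngr1 and Adgra1 were not called without contralateral library 2, with a highest adjusted p of 0.0645 and 0.0541. Igfbp4 was not called without contralateral library 2 or ipsilateral library 3, with a highest adjusted p of 0.0744. Slc6a7 was not called without contralateral library 2 or ipsilateral library 1 or 3, with a highest adjusted p of 0.124. Gfra2 was not called without contralateral library 2 or ipsilateral library 2 or 3, with a highest adjusted p of 0.0819. Nmnat2 was not called without contralateral library 1, 2 or 3 or ipsilateral library 2 or 3, with a highest adjusted p of 0.208.

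Of 23 neuronal markers 1 fell, Tubb3, and none rose, while 16 were below 0 with a median of −0.09, where 51.2% of all genes were below 0 and the median was −0.01. The most abundant, Snap25, Camk2a and Syt1, were at −0.07 ± 0.06, 0.14 ± 0.07 and −0.18 ± 0.07. The summed neuronal level overlapped between sides, as given above. Tubb3 was not called without contralateral library 1 or 2 or ipsilateral library 1 or 3 (highest adjusted p = 0.205). Fewer neurons and less RNA per neuron cannot be told apart here, and the part of the higher mitochondrial share was not tested.

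The remaining falls include enzymes and signalling genes used in many cells. Got2, the mitochondrial aspartate aminotransferase, had 325, 317 and 283 against 258, 258 and 258 CPM (log2 −0.26 ± 0.06, adjusted p = 0.0361), and Prkaca, the main catalytic subunit of protein kinase A, 187, 191 and 179 against 161, 157 and 158 CPM (log2 −0.23 ± 0.06, adjusted p = 0.0405). Ttc3, a ubiquitin ligase, changed by −0.24 ± 0.06, Fxyd6, a subunit of the sodium pump, by −0.34 ± 0.08, the palmitoyl transferase Zdhhc22 by −0.37 ± 0.07 and Parm1, a mucin-like protein, by −0.44 ± 0.08. Sez6l (−0.27 ± 0.07), Galnt17 (−0.32 ± 0.08), Btbd11 (−0.33 ± 0.08), Nipal3 (−0.29 ± 0.07), Smg6, an endonuclease of nonsense-mediated decay (−0.29 ± 0.07), and Tceanc2 (−0.42 ± 0.09) complete them. In all 12 the sides did not overlap, which was so for 8.7% of all genes in this direction. Got2, Prkaca and Btbd11 were not called without contralateral library 1 or 2 or ipsilateral library 1, 2 or 3, with a highest adjusted p of 0.183, 0.200 and 0.138. Ttc3, Sez6l and Nipal3 were not called without contralateral library 2 or 3 or ipsilateral library 1, 2 or 3, with a highest adjusted p of 0.224, 0.204 and 0.269. Fxyd6 and Galnt17 were not called without contralateral library 2 or ipsilateral library 1, 2 or 3, with a highest adjusted p of 0.155 and 0.234. Zdhhc22 was not called without contralateral library 2 or ipsilateral library 3, with a highest adjusted p of 0.0842. Parm1 was not called without contralateral library 2, with a highest adjusted p of 0.0541. Smg6 was not called without contralateral library 1 or 2 or ipsilateral library 2 or 3, with a highest adjusted p of 0.227. Tceanc2 was not called without contralateral library 2 or ipsilateral library 2 or 3, with a highest adjusted p of 0.141.

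Of 23 microglia markers 1 fell, and of 30 meningeal and fibroblast markers 2 fell, where 0.184% of all genes fell. Tmem119, a microglial surface marker, had 24.6, 27.0 and 23.6 against 12.6, 16.9 and 16.7 CPM (log2 −0.71 ± 0.13, adjusted p = 0.00564), and the other 22 microglia markers, which summed with it to 1377 to 1504 CPM in contralateral and 1422 to 1820.0 CPM in ipsilateral libraries, held 1 rise, Gpr183, a chemotactic oxysterol receptor (1.48 ± 0.32), and no fall. Stab1, a scavenger receptor of macrophages and sinusoidal endothelium, had 18.9, 20.9 and 18.3 against 11.8, 12.9 and 14.9 CPM (log2 −0.56 ± 0.14, adjusted p = 0.0390). Myoc and Slc6a13, both abundant in the meninges, had 33.7, 34.7 and 27.5 against 15.3, 17.8 and 23.3 CPM (−0.77 ± 0.18) and 14.1, 14.7 and 12.8 against 5.82, 8.50 and 11.2 CPM (−0.70 ± 0.18), and Ccn2, a matrix protein, 48.8, 39.9 and 47.8 against 32.6, 19.999 and 18.2 CPM (−0.95 ± 0.24). Meningeal and fibroblast markers as a whole stood lower: 28 of 30 were below 0 (median −0.41), where 51.2% of all genes were. At an unadjusted p under 0.05, 14 of the 30 were lower, beside 914 of all 16836 genes. They summed to 1260.0 to 1517 CPM in contralateral and 755 to 1228 CPM in ipsilateral libraries. The share of meninges in the tissue and its part in these falls were not tested. The glucocorticoid-induced chaperone Fkbp5 had 43.0, 46.1 and 33.4 against 24.8, 29.1 and 26.0 CPM (−0.62 ± 0.15). Stab1, Myoc and Slc6a13 were not called without contralateral library 1 or 2 or ipsilateral library 1 or 2, with a highest adjusted p of 0.191, 0.157 and 0.193. Ccn2 was not called without contralateral library 1, 2 or 3 or ipsilateral library 2 or 3, with a highest adjusted p of 0.214. Fkbp5 was not called without contralateral library 1 or 2 or ipsilateral library 1, 2 or 3, with a highest adjusted p of 0.192. Gpr183 was not called without contralateral library 1 or 2 or ipsilateral library 1 or 3, with a highest adjusted p of 0.116.

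**Figure D3:**
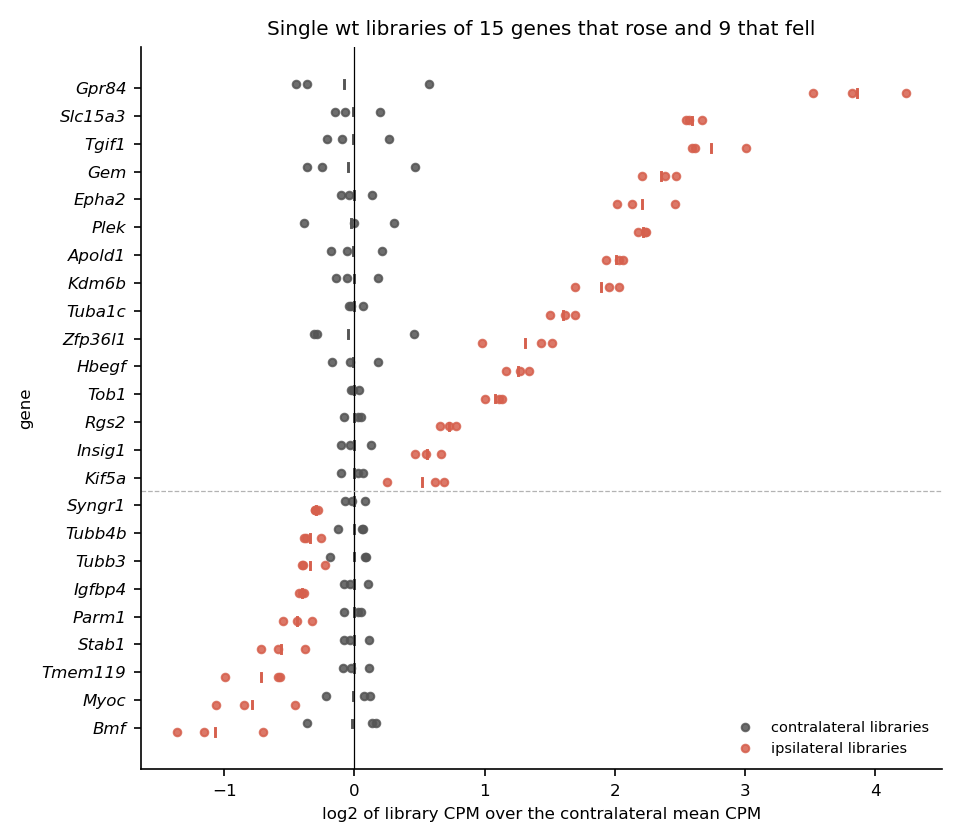
Log2 of each wt library's CPM over the mean of the contralateral libraries, for 15 genes that rose (above the dashed line) and 9 that fell; dots are libraries (grey contralateral, red ipsilateral) and short bars their means. Gpr84 and Tgif1 lie furthest to the right, and the falls from Syngr1 to Parm1 lie close to 0.

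Of 17 astrocyte markers 6 rose and none fell (median 0.25), and the list summed to 4488 to 5399 CPM in contralateral and 5526 to 6024 CPM in ipsilateral libraries. The astrocyte transcription factor Sox9 had 9.11, 10.2 and 13.1 against 17.9, 22.7 and 18.4 CPM (log2 0.87 ± 0.14, adjusted p = 0.00165) and the neurotensin receptor Ntsr2 94.9, 86.5 and 80.4 against 107, 129 and 120.0 CPM (log2 0.44 ± 0.08, adjusted p = 0.00546). S100b gained 0.31 ± 0.07 and the lipid enzyme Acsbg1 0.32 ± 0.07, while the bicarbonate transporter Slc4a4 and the growth factor receptor Fgfr3 gained 0.39 ± 0.09 and 0.35 ± 0.09. S100b was not called without contralateral library 1 or 2 or ipsilateral library 3, with a highest adjusted p of 0.125. Acsbg1 was not called without contralateral library 2 or ipsilateral library 2 or 3, with a highest adjusted p of 0.116. Slc4a4 was not called without contralateral library 1 or 2 or ipsilateral library 1, 2 or 3, with a highest adjusted p of 0.208. Fgfr3 was not called without contralateral library 1, 2 or 3 or ipsilateral library 1, 2 or 3, with a highest adjusted p of 0.208. The number of rises on the list was 2 without contralateral library 2 or ipsilateral library 3 and 3 without ipsilateral library 2. No oligodendrocyte marker of 15 passed (1 at an unadjusted p under 0.05, 0 by DESeq2 and limma-voom), and of 14 precursor markers none passed with edgeR or limma-voom (4 at an unadjusted p under 0.05 and 2 by DESeq2), with 2 called without contralateral library 3 and 1 without ipsilateral library 1. No marker of striatum (16) or of choroid plexus and ependyma (11) passed with edgeR, DESeq2 or limma-voom, and 4 and 1 were higher at an unadjusted p under 0.05. Striatum markers leaned to the injured side: 14 of 16 were above 0 (median 0.25), where 8213 of all 16836 genes were. They summed to 501 to 585 CPM in contralateral and 542 to 657 CPM in ipsilateral libraries. The share of striatum in the tissue was not tested. Choroid plexus markers summed to 10.9 to 56.1 CPM in ipsilateral libraries, the highest in library 2, and to 14.2 to 20.1 CPM in contralateral ones.

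Of the 460 rises 21 were not protein-coding genes, nor were 2 of the 31 falls. Neat1, the long noncoding RNA that builds paraspeckles in the nucleus, had 24.6, 34.8 and 33.1 against 50.4, 70.9 and 54.1 CPM (log2 0.92 ± 0.16, adjusted p = 0.00393). The pseudogene Gm10925 and the related Gm29216 and Gm28438 on chromosome 1 are copies of mitochondrial DNA, whose reads cannot be told from those of mitochondrial genes, and they gained 0.75 ± 0.17, 0.69 ± 0.17 and 0.66 ± 0.14. Of 13 mitochondrially encoded genes 10 rose, and among all outside genes that rose mt-Co1 had the largest difference in TPM, from 21852 ± 3177 to 31072 ± 643 TPM (log2 of the counts 0.73 ± 0.14, adjusted p = 0.00651). The mitochondrial list had 5 rises without contralateral library 1 or ipsilateral library 2, 4 without contralateral library 2 and 6 without ipsilateral library 3. Both falls were antisense genes: Gm28370 went from 9.82 ± 0.795 to 6.96 ± 0.725 CPM (log2 −0.50 ± 0.12, adjusted p = 0.0314) and Gm13008, which lies across Eloa, had 32, 22 and 7 counts in contralateral libraries 1 to 3 and 0, 3 and 3 in ipsilateral libraries 1 to 3 (adjusted p = 0.0256). Gm10925 and Gm13008 were not called without contralateral library 1 or 2 or ipsilateral library 1, 2 or 3, with a highest adjusted p of 0.146 and 0.105. Gm29216 was not called without contralateral library 2 or 3 or ipsilateral library 2 or 3, with a highest adjusted p of 0.229. Gm28438 was not called without contralateral library 1 or 2 or ipsilateral library 2, with a highest adjusted p of 0.0736. Gm28370 was not called without contralateral library 1 or 2 or ipsilateral library 2 or 3, with a highest adjusted p of 0.158.

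Genes that rose had shorter median spans on the genome. Among protein-coding genes the median span from first to last exon was 25.1 kb for all 14687 tested, 14.4 kb for the 325 outside rises, 7.96 kb for the 114 set-aside rises and 29.6 kb for the 29 falls. The median number of separate exonic blocks was 10 for all genes, 6 for outside rises and 10 for falls. Genes of a single block were 3.13% of all, 10.2% of outside rises (33 of 325) and none of the falls. Spans under 5 kb were found in 10.9% of all genes, 21.8% of outside rises, 34.2% of set-aside rises and 10.3% of falls. The groups also differ in level: the median over genes of the mean level was 20.7 CPM for all, 15.6 CPM for outside rises and 70.7 CPM for falls. These are descriptions without a test.

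**Figure D4:**
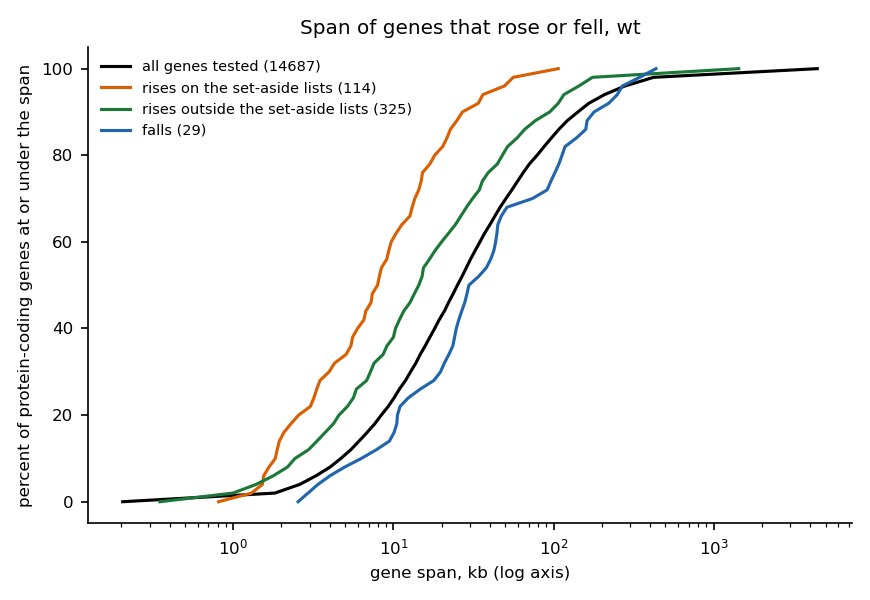
Percent of protein-coding genes (vertical) whose span is at or under a given length in kb (horizontal, log axis). The line of set-aside rises (median 7.96 kb) lies furthest to the left, that of outside rises (14.4 kb) between it and all genes tested (25.1 kb), and that of falls (29.6 kb) to the right.

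The same comparison in cKO cortex rests on other libraries and gives the measure again in another genotype. In cKO cortex 431 genes rose (2.56%) and 30 fell (0.178%). Of the 460 genes that rose in wt, 322 also rose in cKO, which is 70.0% of the wt and 74.7% of the cKO rises, and 457 had the same sign. Of the 31 that fell in wt, 7 also fell in cKO (22.6% of the wt and 23.3% of the cKO falls) and all 31 had the same sign. Without the cKO libraries numbered 2, which leaves 2 a side, 210 genes rose and 3 fell in cKO, and 199 of the wt rises and 2 of the wt falls were among them; 455 and 30 had the same sign. That fit called 382 rises and 15 falls in wt, and again 0 differences between genotypes with edgeR (339 at an unadjusted p under 0.05). Without ipsilateral cKO library 3, 422 genes rose and 14 fell in cKO, 305 of the wt rises and 5 of the wt falls were among them, and 458 and 29 had the same sign. With all libraries the 7 included Tmem119, Igfbp4, Gfra2 and the tubulins Tubb3, Tubb4b and Tubb5. Tmem119 and Tubb3 were the 2 that passed without the libraries numbered 2, and those of the named 6 that passed without ipsilateral cKO library 3 were these and Igfbp4 and Gfra2. Of the 345 outside rises 215 (62.3%) passed in cKO, and their median change was 0.77 in wt and 0.71 in cKO. The number was 120 (34.8%) without the libraries numbered 2 and 201 (58.3%) without ipsilateral cKO library 3.

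The response did not differ past the test between genotypes for any gene. With edgeR, the only tool run on this difference, 0 of 16836 genes (0.0%) passed (lowest adjusted p = 1), and 381 had an unadjusted p under 0.05, 29 of them among the 375 called outside genes. Without ipsilateral cKO library 3 again 0 passed (432 at an unadjusted p under 0.05). Rab20, for one, gained 2.57 ± 0.32 in wt and 4.11 in cKO, a difference of 1.53 ± 0.51, and mt-Atp6 1.10 ± 0.15 against 0.24, a difference of −0.87 ± 0.21. Falls such as Zdhhc22 (−0.37 ± 0.07 in wt, −0.04 in cKO) and Myoc (−0.77 ± 0.18 and −0.06) passed in wt alone, which does not show that the genotypes differ. In cKO, Myoc was at −0.37 without the libraries numbered 2 and at 0.02 without ipsilateral library 3, and mt-Atp6 at 0.15 and 0.37. Zdhhc22 was not called without contralateral library 2 or ipsilateral library 3, with a highest adjusted p of 0.0842. Myoc was not called without contralateral library 1 or 2 or ipsilateral library 1 or 2, with a highest adjusted p of 0.157.

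**Figure D5:**
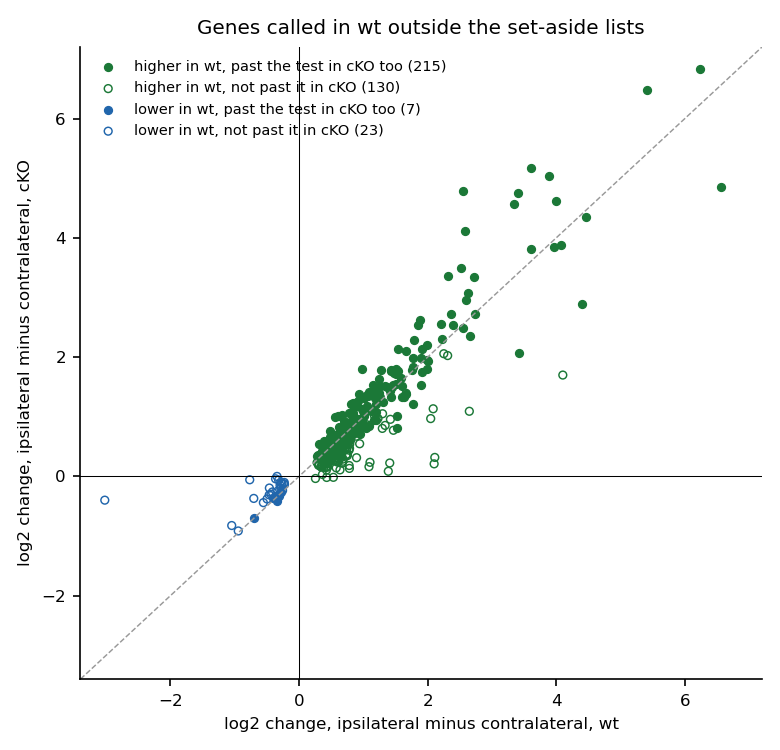
Log2 change between sides in wt (horizontal) and cKO (vertical) of the 375 outside genes called in wt; filled points also passed in cKO. Points lie along the dashed line of equal change, with 342 of the 345 rises above 0 and all 30 falls below 0 in cKO.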

How the data were processed

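RNA from cortical tissue taken 2 hr after CCI was extracted with Trizol and made into libraries with a stranded mRNA kit, per the labels' protocols. The submitters' processing notes name Trim Galore 0.6.4, STAR 2.7.1a, RSEM 1.2.28, DESeq2 1.36.0 and the build mm10, without their roles or settings. The deposited count table holds whole numbers for 55487 genes in 12 libraries, taken here as the authors' estimated counts because RSEM, which estimates counts, is the only counting tool in those notes. The deposited TPM table holds the authors' length-corrected values relative to each library. The counting strand is not given in the sources used here. Gene models and coordinates were those of GENCODE M21 (GRCm38), with 55141 genes matched by identifier, and promoter windows were those of RefSeq.

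The estimated counts were filtered with edgeR 4.0.16 (minimum count 10, minimum total 15), which left 16836 genes, scaled by TMM and tested with its quasi-likelihood test over 12 libraries in 4 groups of 3, with Benjamini-Hochberg adjustment at 0.05. Each wt library was left out in turn. The alternatives were DESeq2 1.42.0 (size factors, then test), limma 3.58.1 (voom, and log2(TPM + 1) with a mean of at least 1), library totals, other filters, a replicate block, the wt libraries alone, and trends on GC content and length removed; leaving out the cKO libraries numbered 2, and ipsilateral cKO library 3 for the cKO results, was added after seeing the data. The procedure was tested on simulated data.

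The gene lists, the comparison and the naming rule were chosen with earlier results of these data known. Named were, among called genes, the 20 largest outside rises without overlap between sides and with an ipsilateral mean of at least 1 CPM, every fall, up to 4 called members of each list by adjusted p, the 10 outside rises and the 10 falls with the largest TPM difference, and up to 8 genes that are not protein-coding by TPM. Exceptions are given as such where they stand, and a few genes that the rule names are not reported here. Total counts limit precision at low levels: 3 counts were 0.104 CPM in the deepest wt library and 0.129 CPM in the shallowest.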

Additional observations from a re-analysis of the deposited data

How the results depend on the processing

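Of 144 named genes 43 kept their call under every alternative, and none changed sign. The 460 rises and 31 falls became 852 and 139 with no filter on low counts, which tests 29438 genes. They became 613 and 153 with the DESeq2 test, 379 and 73 with library totals, 578 and 139 with the GC and length trends taken out, and 122 and 17 with limma on log2(TPM + 1). They became 363 and 12 with the wt libraries alone; the cause of these moves was not tested, except that this last fit holds fewer samples. Leaving out 1 wt library gave 248 to 687 rises and 2 to 174 falls. Without the cKO libraries numbered 2, an alternative chosen after seeing the data, there were 382 rises and 15 falls in wt, of the main rises and falls 199 and 2 passed in cKO where 322 and 7 did with all libraries, and fewer samples enter that fit; without ipsilateral cKO library 3, also chosen after seeing the data for these counts, 305 and 5 did. Limma-voom, DESeq2 size factors and the strict filter stayed within 1.5 times for both counts. The replicate block gave 526 and 41. Same-numbered libraries correlated by −0.002, 0.0941 and 0.0457 across genes in their deviations from the group mean, and other pairs by −0.111 to 0.0606. This does not decide whether equal numbers mark the same animal, and a few genes given below went with the number on both sides. The main fit leaves a possible pairing out. On log2(TPM + 1) the median of all genes was −0.18, and changes there are relative to it. Limma on that scale called no gene of the Notch, astrocyte, clock and cholesterol lists, among others. In TPM the sides of Notch1 and Hes1 overlapped. Genes near 3 counts a library, such as Cytip on the contralateral side, are limited by depth.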

Other observations

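Of 16 Sox genes tested with edgeR, a family taken whole after its values were seen, 4 rose. Besides Sox9 and Sox7, these were Sox11, a factor of immature neurons, at 0.65 ± 0.16 (adjusted p = 0.0394) on the log2 scale, and Sox2, a factor of astrocytes and neural stem cells, at 0.48 ± 0.10 (adjusted p = 0.0113). Sox11 was not called without contralateral library 1 or 2 or ipsilateral library 1 or 2, with a highest adjusted p of 0.212. Sox2 was not called without contralateral library 2 or ipsilateral library 2 or 3, with a highest adjusted p of 0.0751.

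A few genes had levels that went with the replicate number on both sides of the brain. Hikeshi, a nuclear import carrier of Hsp70, had 26.1, 12.3 and 26.4 CPM in contralateral and 27.5, 11.97 and 24.9 CPM in ipsilateral wt libraries 1 to 3. Library 2 was thus the low one on both sides, while all 6 cKO libraries lay between 21.8 and 28.1 CPM. Ide, the insulin-degrading enzyme, had 81.8, 39.5 and 80.2 CPM in contralateral and 79.9, 38.2 and 75.1 CPM in ipsilateral cKO libraries 1 to 3, and Wdfy1, an endosomal adaptor, had 11.01, 25.3 and 11.4 CPM in contralateral and 12.3, 25.9 and 12.1 CPM in ipsilateral cKO libraries 1 to 3. In these genes cKO libraries 1 and 3 stood together on both sides and library 2 stood near the wt libraries. Whether equal numbers mark the same animal is not given in the labels, and these genes were picked for the pattern, so they are values without a test.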
